A study of Mus musculus with 17 samples.

Results

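Annexins, S100 proteins and vimentin were followed through 3 groups of mouse livers as 10 genes, Anxa1, Anxa2, Anxa3, Anxa4, Anxa5, S100a4, S100a6, S100a10, S100a11 and Vim. The members were the rows of the deposited table whose gene identifier carries 1 of these symbols. All 10 were found among 52545 genes, and all 10 passed the filter on low values, which kept 18624 genes. The livers came from 17 male mice of the C57BL/6J strain, aged 32 weeks, and non-tumorous tissue of each mouse gave 1 RNA-seq library. Regular diet was the untreated group (5 mice). The other groups shared diethylnitrosamine (DEN), a liver carcinogen given at 100 mg/kg in week 1, and CDA-HFD, a high-fat diet deficient in choline. Of these DEN-CDA-HFD mice, Vehicle Control mice (6) received an intraperitoneal PBS injection once per week for 16 weeks, and CLDN1 mAb mice (6) received 500 µg of a monoclonal antibody on the same schedule, whose target claudin-1 is a protein of tight junctions. No Regular diet mouse received carcinogen, CDA-HFD or injections, so the parts of the model cannot be told apart against that group. No mouse on a regular diet received the antibody.

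Annexins bind acidic phospholipids on the inner face of membranes when calcium rises, and take part in membrane repair, vesicle traffic and the anchoring of actin to membranes. S100 proteins are small dimeric proteins with EF-hand calcium-binding motifs, and some bind the N-terminal tail of an annexin: S100a10 pairs with annexin A2 and S100a11 with annexin A1. Vimentin is the intermediate filament protein of mesenchymal and immune cells, and healthy hepatocytes carry little of it. Hepatocytes make up most of the liver's mass, so a bulk liver library mixes their RNA with that of macrophages, fibroblasts, bile duct cells and others.

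Values are the authors' normalized counts, on which a given number of sequenced fragments is worth a different amount in each library. Deposited totals ran from 29.7 to 74.6 M per library, and depth estimated from the smallest step between values from 27.7 to 59.5 M fragments. Regular diet replicate 1 stood apart with the total of 74.6 M, against 48.2 to 51.2 M in the other Regular diet libraries. Vehicle Control replicates 3, 4 and 6 stood apart with the lowest totals, 29.7 to 31.3 M against 37.3 to 42.1 M in the other vehicle libraries. Of 8 hepatocyte markers, Alb was listed at 0 in all 17 libraries, and such a 0 can stand for an estimate that failed. The other 7 summed to between 318 and 3256 in units of 1000 normalized counts per library, the unit of all marker sums here. In bulk tissue, fewer cells of a type and less RNA per cell cannot be told apart. The p-values of group comparisons rest on the spread among mice of a group. Those of correlations between members pool the mice of both DEN-CDA-HFD groups, so they mix the difference between groups with the spread within them.

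In DEN-CDA-HFD livers 9 of the 10 genes were far higher than in Regular diet livers, and S100a10 was the exception. In Vehicle Control against Regular diet, all 9 had an adjusted p under 0.05 and groups that did not overlap, against 29.8% of all genes called higher, 20.7% called lower and 19.1% with higher, non-overlapping groups. The median log2 fold change of the 10 was 3.94, and that of all genes tested 0.04. The rises ranged from a log2 fold change of 1.57 for Anxa4 to 4.83 for Anxa1. The antibody group was also higher than Regular diet for these 9 genes, with a median over the 10 of 3.35 and of 0.01 over all genes, where 24.8% of genes were called higher, 14.1% lower, and 18.6% had higher, non-overlapping groups. Both comparisons use the same 5 Regular diet libraries. The members and gene lists were chosen with earlier results of these data known, so shares above those of all genes can reflect that choice.

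**Figure D1:**
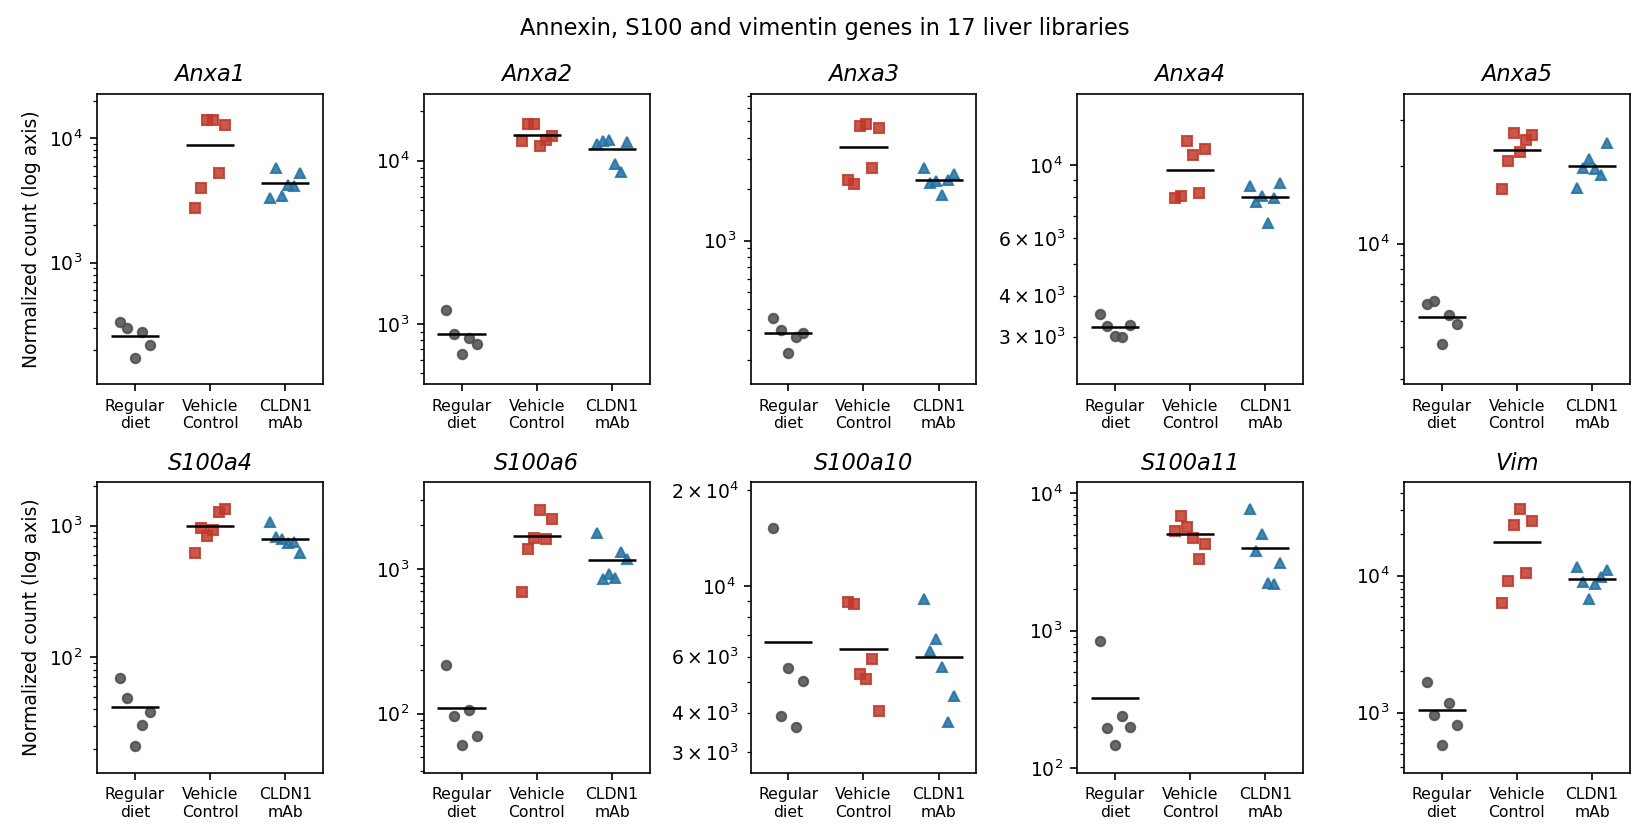
Normalized counts of the 10 genes in each of the 17 libraries (points) on log axes, with group means as lines, for Regular diet, Vehicle Control and CLDN1 mAb. Regular diet lies below every other library for 9 genes, and for S100a10 the 3 groups overlap.

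Anxa1, annexin A1, an inhibitor of phospholipase A2 and a ligand of formyl peptide receptors, lies on chromosome 19 (20373428 to 20390944, minus strand, mm10). Its Regular diet values were 332, 297, 171, 279 and 217 normalized counts. In Vehicle Control they ran from 2738 through a median of 8951 to 14108, and in CLDN1 mAb from 3307 through 4158 to 5747. The vehicle libraries fell into a high and a low set, and the antibody libraries lay close to the low set. Anxa1 was 28.5-fold higher in vehicle than in Regular diet (log2 fold change 4.83 ± 0.38 SE, adjusted p = 1.8e-08) and 16.8-fold higher in the antibody group (4.07, adjusted p = 1.84e-07).

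Anxa2, annexin A2, which with S100a10 forms a cell-surface complex that binds plasminogen and its activator, lies on chromosome 9 (69453620 to 69491795, plus strand). Regular diet values were 1218, 870.1, 655, 826 and 758. Vehicle values ran from 12374 through 13713 to 16845, and antibody values from 8572 through 12785 to 13455. Its spread within groups was small, with a standard deviation in vehicle of 13.4% of the mean against 61.0% for Anxa1. The rise in vehicle was 16.9-fold (4.08 ± 0.17, adjusted p = 2.31e-11), the smallest adjusted p among the 10 genes. The antisense model Gm16144 overlaps exons of Anxa2 and reached at most 17.6 normalized counts in any library, and no strand setting is given in the sources used here.

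Anxa3, an annexin abundant in neutrophils, was measured at 351, 302, 219, 272 and 287 in Regular diet. Values in vehicle ran from 2139 through 3613 to 4797 and antibody values from 1846 through 2258 to 2664. Anxa3 was 11.7-fold higher in vehicle (3.55 ± 0.22, adjusted p = 1.43e-09) and 7.97-fold higher in the antibody group (2.995).

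Anxa4, an annexin of secretory epithelia and bile ducts, had the smallest rise and the tightest Regular diet values, 3525, 3240.2, 3019, 2990.3 and 3252. Vehicle libraries ran from 7958 through 9461 to 11872 and antibody libraries from 6670.5 through 7998 to 8846. Every one of the 12 lay above all 5 Regular diet libraries, at a 2.98-fold difference in vehicle (1.57 ± 0.13, adjusted p = 4.61e-08) and 2.48-fold with antibody (1.31).

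Anxa5, annexin A5, known for binding phosphatidylserine on dying cells, stood at 5829.5, 5983, 4080.0, 5282 and 4872 in Regular diet. Those in vehicle ran from 16301 through 23852 to 26685 and antibody values from 16387 through 19512 to 24530.0. The rise was 4.39-fold in vehicle (2.13 ± 0.16, adjusted p = 1.08e-08) and 3.84-fold with antibody (1.94). Per kilobase of annotated exon, Anxa5 was the most abundant of the 5 annexins in all 3 groups, at 2931 ± 434 in Regular diet (SD, n = 5) and 12921 ± 2223 in vehicle (n = 6).

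Promoter windows were available for 8 of the 10 genes, from RefSeq on GRCm38.p6, as 9 windows with 250 bases before the start site. Anxa3 and S100a10 have no entry in the table. The upstream bases of Anxa2 and of 3 of the S100 genes are printed, a choice among the 9 members that rose in both comparisons with Regular diet. Anxa2 and S100a11 share the same kinds of motif match in these bases, and S100a4 and S100a6 hold others. The capitals mark matches to 6 motifs searched on both strands. The motif of AP-1, the Fos and Jun transcription factors, was spelled TGANTCA, where N is any base. That of TEAD, the factors through which the Hippo pathway acts, was spelled GGAATG. The GC box, bound by Sp1 and related factors, was spelled GGGCGG and the TATA box of core promoters TATAAA, while the CCAAT box carries its letters in its name and the NF-kappaB motif was the last searched. Only bases upstream of all annotated exons are shown, 5′ to 3′ on the gene's strand, at chr9:69453433-69453619, chr3:93520246-93520487, chr3:90603520-90603769 and chr3:90612644-90612881, all on the plus strand of GRCm38.p6.
Anxa2: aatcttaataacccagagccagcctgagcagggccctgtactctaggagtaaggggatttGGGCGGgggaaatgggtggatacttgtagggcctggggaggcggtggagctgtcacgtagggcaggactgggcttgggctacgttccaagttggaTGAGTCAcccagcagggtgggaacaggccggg
S100a11: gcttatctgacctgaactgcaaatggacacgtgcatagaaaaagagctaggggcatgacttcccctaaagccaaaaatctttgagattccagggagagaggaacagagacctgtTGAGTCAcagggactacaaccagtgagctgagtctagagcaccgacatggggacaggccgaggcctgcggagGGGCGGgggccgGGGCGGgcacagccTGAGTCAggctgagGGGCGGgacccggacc
S100a4: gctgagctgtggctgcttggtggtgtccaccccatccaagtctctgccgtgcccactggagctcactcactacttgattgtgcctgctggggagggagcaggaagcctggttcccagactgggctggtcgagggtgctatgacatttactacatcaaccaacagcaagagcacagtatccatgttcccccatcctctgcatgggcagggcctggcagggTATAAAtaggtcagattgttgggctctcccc
S100a6: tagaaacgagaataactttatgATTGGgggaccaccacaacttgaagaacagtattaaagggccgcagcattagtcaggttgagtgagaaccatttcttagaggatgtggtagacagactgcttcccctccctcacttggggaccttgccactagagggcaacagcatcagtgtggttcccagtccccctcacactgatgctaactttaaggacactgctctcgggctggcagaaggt
The Anxa2 stretch holds 1 AP-1 match, whose first base lies at -95 from the start site, and 1 GC box. The S100a11 stretch holds 2 AP-1 matches, at -136 and -38, and 3 GC boxes. S100a4 has a TATA box at -31, and S100a6 a CCAAT box read on the other strand at -228. Over the full 250 bases, 2 of the 9 windows held AP-1, 1 TEAD, 2 a GC box, 4 a TATA box, 2 a CCAAT box and 2 the NF-kappaB motif. Among windows not printed, that of Anxa5 and that of Anxa4 at chr6:86775115-86775364 held none of the 6 motifs. Of 32851 mouse windows of that length, 6.75% held AP-1, 12.6% TEAD, 32.7% a GC box, 12.4% a TATA box, 33.8% a CCAAT box and 1.41% the NF-kappaB motif. These are matches of letters, and no binding was measured.

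S100a4, also known as metastasin, a calcium-dependent partner of non-muscle myosin that is used as a marker of fibroblasts and some macrophages, had the lowest mean per kilobase of the 10 in Regular diet, with a range that overlapped those of Anxa1, Anxa3 and S100a6. Its values there were 68.8, 48.6, 21.0, 30.3 and 38.2, which rest on an estimated 22 to 37 fragments per library. In vehicle the values ran from 624 through 942 to 1345 and antibody values from 623 through 767 to 1063. All 12 DEN-CDA-HFD libraries lay far above the 5 Regular diet libraries. S100a4 was 24.5-fold higher in vehicle (4.61 ± 0.26, adjusted p = 7.54e-10) and 20.04-fold higher with antibody (4.32).

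S100a6, calcyclin, a partner of the calcyclin-binding protein Cacybp, was at 216, 97.1, 61.3, 106 and 70.3 in Regular diet. Vehicle values ran from 689 through 1620.0 to 2544, and antibody values from 848 through 1047 to 1768. Regular diet replicate 1 was the highest of its group and still lay below all 12 others. The rise was 15.5-fold in vehicle (3.95 ± 0.34, adjusted p = 4.52e-08) and 11.04-fold with antibody (3.46).

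S100a11, calgizzarin, was at 835, 196, 146, 239 and 200.1 in Regular diet, where replicate 1 was again highest. Vehicle values ran from 3339.9 through 5047 to 6861 and antibody values from 2196 through 3468 to 7633. The antibody group had the wider range, and its lowest library still exceeded every Regular diet library. S100a11 was 19.0-fold higher in vehicle (4.25 ± 0.39, adjusted p = 1.06e-07) and 13.95-fold higher with antibody (3.802).

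S100a10, the annexin A2 light chain, differs from other S100 proteins in having lost calcium binding. It was at 15226, 3887, 5514, 3611 and 5017 in Regular diet, from 4043 through 5601 to 8932 in vehicle, and from 3724 through 5901 to 9086 with antibody. The 3 groups overlapped throughout, and the highest of all 17 libraries was Regular diet replicate 1. The log2 fold change was 0.10 in vehicle (95% interval -0.59 to 0.79, adjusted p = 0.829) and 0.02 with antibody (-0.67 to 0.71, adjusted p = 0.974). Without Regular diet replicate 1 the vehicle value was 0.45 (adjusted p = 0.136). With each library scaled to the same total it was 0.72 (adjusted p = 0.0149), where the median of all genes stood at 0.65.

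Vim, vimentin, lies on chromosome 2 (13573927 to 13582826, plus strand), with no overlapping gene model. Regular diet values were 1688, 959, 578, 1186 and 817. Values in vehicle ran from 6349 through 17031 to 30446 and antibody values from 6701 through 9386 to 11493. As with Anxa1, the vehicle libraries split into a high and a low set. Vim was 15.2-fold higher in vehicle (3.93 ± 0.36, adjusted p = 1.29e-07) and 9.46-fold higher with antibody (3.24).

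The scaling of the libraries bears on how these counts read against all genes. In Vehicle Control against Regular diet 5547 genes were higher and 3853 lower as deposited, 9369 and 1264 with the same total per library, and 4447 and 5223 after quantile normalization. For CLDN1 mAb against Regular diet the counts were 4613 and 2634 as deposited, 7063 and 831 with the same total, and 3553 and 3725 after quantile normalization. The all-gene median in vehicle moved from 0.04 to 0.65 and -0.13, and the 9 members stayed higher under each of these scalings.

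**Figure D2:**
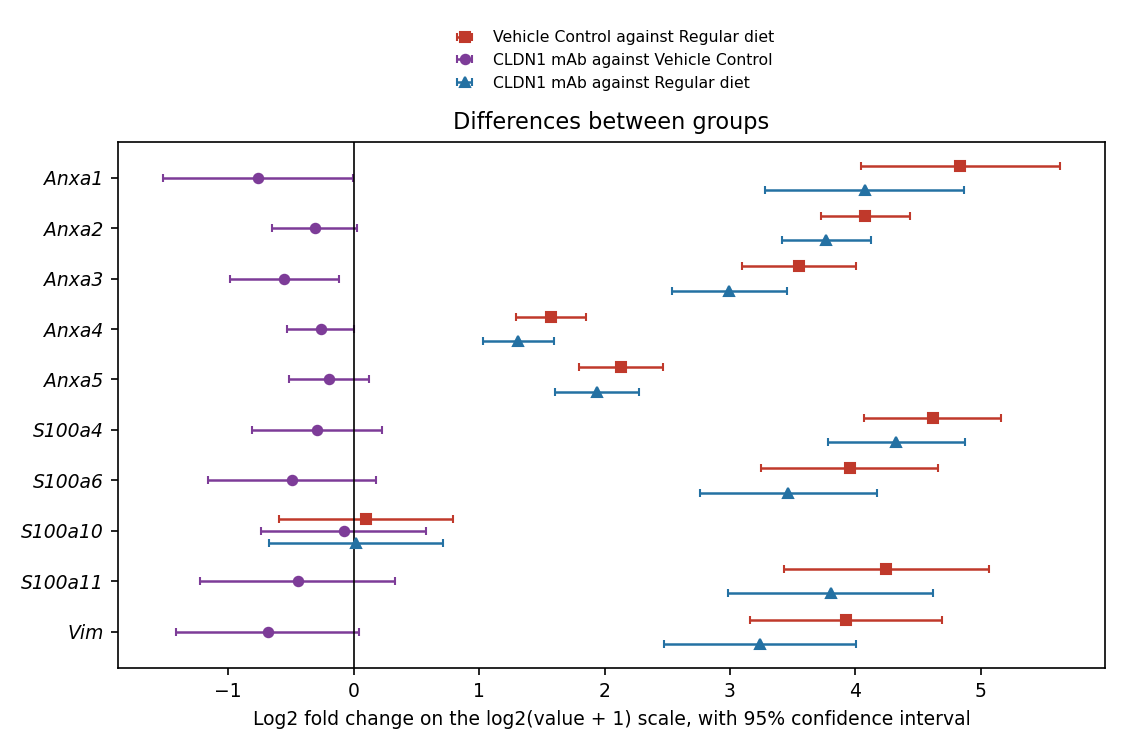
Log2 fold changes of the 10 genes on the log2(value + 1) scale with 95% intervals for the 3 comparisons. Intervals of 9 genes lie far above 0 in both comparisons with Regular diet, and S100a10 lies at 0.10 and 0.02.

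Several lists of marker genes of other cells moved with the same contrast. In vehicle against Regular diet, 8 of 10 macrophage markers, 5 of 5 of lipid-associated macrophages, 5 of 5 of monocytes, 7 of 7 of cholangiocytes and 7 of 8 of fibroblasts were higher. The same held for 4 of 6 tested neutrophil markers and 5 of 6 of T cells, while 6 of 7 tested hepatocyte markers were lower. Counts near the share of all genes (29.8% higher, 20.7% lower) were 1 of 5 higher for B cells, 2 of 6 higher for stellate cells, 2 of 6 higher for mesothelium and 2 of 6 lower for endothelium. Ly6g, a defining neutrophil gene, stood at 0 in the 5 Regular diet libraries, and no defining marker of the other non-hepatocyte lists was at 0 throughout a group. Summed macrophage markers ran from 9.02 to 31.7 in Regular diet, from 50.9 to 158 in vehicle and from 77.2 to 129 in the antibody group. Summed fibroblast markers ran from 8.87 to 14.04, from 34.1 to 135 and from 29.5 to 98.4, and cholangiocyte markers from 3.55 to 5.14, from 45.6 to 101 and from 40.8 to 79.2. Hepatocyte markers went the opposite way, at 1459 to 3256, 318 to 1147 and 698 to 1277. The part of these cell types in the rise of the 9 genes was not tested.

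The order of levels per kilobase of exon differed between groups. In Regular diet S100a10 was first at 5488 ± 4008 normalized counts per kilobase (SD, n = 5) and Anxa5 second at 2931 ± 434, with overlapping ranges, and both lay above the third, Anxa4, at 690.1 ± 46.5. S100a11 (633 ± 564), Anxa2 (232 ± 57.2) and Vim (220 ± 88.9) followed, each overlapping its neighbour in this order, and Anxa1, S100a6, Anxa3 and S100a4 formed a lower set at 89.0, 80.6, 78.6 and 70.8. Without Regular diet replicate 1 the S100a11 mean was 382, with a range of 286 to 469 that was apart from both Anxa4 and Anxa2, and S100a10 stayed first at 3719. In vehicle the order was Anxa5 at 12921 ± 2223 (n = 6), S100a11 at 9876 ± 2386, S100a10 at 5230.4 ± 1681, then Anxa2, Vim, Anxa1, Anxa4, S100a4, S100a6 and Anxa3. No 2 neighbours in that order were apart in range, nor were any in the antibody group, where Anxa5, S100a11 and S100a10 again led at 11230.4, 7831 and 4943. Per kilobase, S100a11 thus stood above S100a10 on the mean in both DEN-CDA-HFD groups and below it in Regular diet. By normalized counts S100a10 had the higher mean in each group, with 6339 against 5047 in vehicle and 5991 against 4002 with antibody. The order of genes therefore depends on the exonic lengths, 1212 bases for S100a10 and 511 for S100a11. These lengths count all annotated exons of a gene, and the transcripts expressed can be shorter.

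S100a10 and Anxa2 encode the partners of a complex, and their transcript ratio does not depend on library scaling. Per kilobase of annotated exon, the ratio of S100a10 to Anxa2 was 38.5, 13.8, 25.9, 13.5 and 20.4 in Regular diet. This ratio ran from 0.881 through a median of 1.32 to 2.09 in vehicle and from 1.072 through 1.51 to 2.22 with antibody. Its size depends on the exonic lengths, 1212 bases for S100a10 and 3731 for Anxa2. Without that division the log2 ratio of counts ran from 2.13 to 3.64 in Regular diet, from -1.80 to -0.56 in vehicle and from -1.52 to -0.47 with antibody. No DEN-CDA-HFD library reached the range of the Regular diet libraries. The difference in mean log2 ratio from Regular diet was -3.98 in vehicle and -3.75 with antibody, each with a two-sided exact permutation p = 0.00216, the smallest that 462 regroupings allow here (adjusted p = 0.00649 over 6 ratio tests). On the log2 scale these differences are the changes of S100a10 (0.10 and 0.02) minus those of Anxa2 (4.08 and 3.77). The ratio tests are therefore not separate from the rise of Anxa2 beside S100a10, which did not pass. CLDN1 mAb and Vehicle Control differed by 0.23 (exact permutation p = 0.348, adjusted p = 0.523).

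The ratio of S100a11 to Anxa1, the other complex, did not pass in any comparison. It was 14.3, 3.76, 4.88, 4.88 and 5.26 in Regular diet, from 1.92 through 2.99 to 11.1 in vehicle, and from 3.003 through 3.57 to 13.1 with antibody. The groups overlapped, with the smallest adjusted p at 0.523 (exact permutation test). Both genes thus rose in the DEN-CDA-HFD groups without a detectable shift in their ratio at this spread. Vehicle replicates 3, 4 and 6 held the lowest ratios of their group.

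**Figure D3:**
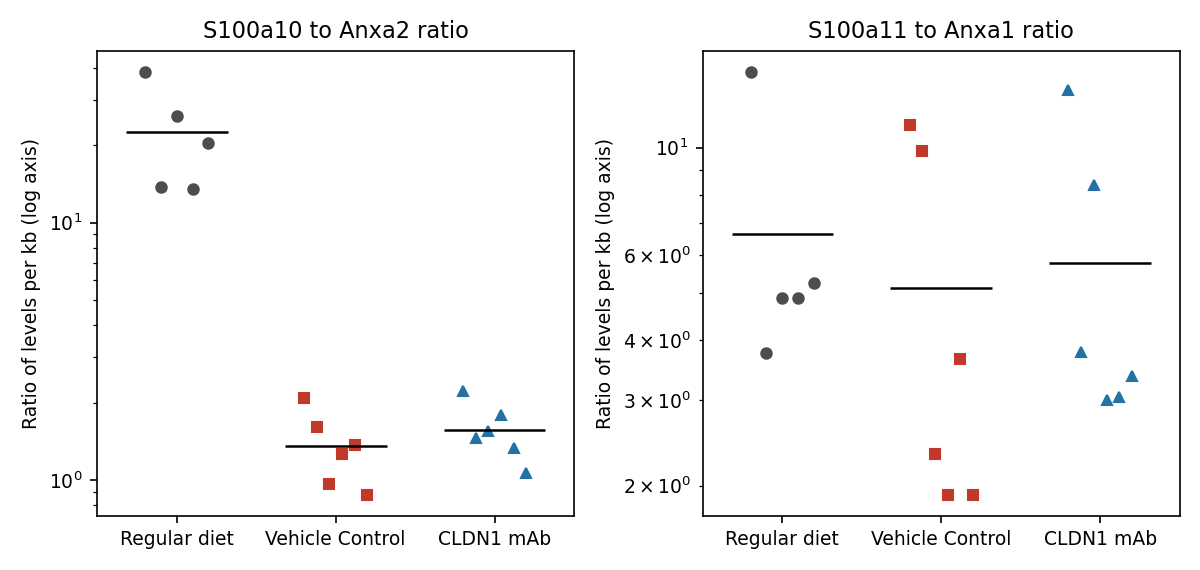
Ratios of S100a10 to Anxa2 and of S100a11 to Anxa1 per kilobase of exon (log axes) in each library, with group means as lines. The first ratio lies from 13.5 to 38.5 in Regular diet and from 0.881 to 2.22 in the other groups, and the second overlaps.

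Within the DEN-CDA-HFD mice, CLDN1 mAb was set against Vehicle Control, the comparison that bears on the antibody. None of the 10 genes passed, and 0% of the 18624 genes tested passed limma at an adjusted p under 0.05. At an unadjusted p under 0.05 there were 1391 genes (7.47%), among them Anxa1 and Anxa3, each with an adjusted p of 0.659 in limma. The 2 groups overlapped for all 10 members, and over all genes 0.0644% had antibody libraries all above vehicle and 0.258% all below. All 10 fitted differences were below 0, from -0.76 for Anxa1 and -0.68 for Vim to -0.08 for S100a10, with a median of -0.38 against -0.05 over all genes. The 95% intervals were -1.52 to -0.00 for Anxa1, -1.42 to 0.05 for Vim, -0.65 to 0.03 for Anxa2 and -0.74 to 0.58 for S100a10. With limma's array weights 7 members were called lower, among 2512 genes higher and 2798 lower. These 7 were Anxa1, Anxa2, Anxa3, Anxa4, S100a6, S100a11 and Vim, with adjusted p from 0.00366 to 0.0413, and the weights gave vehicle replicates 1 and 2 only 0.175 and 0.383 against 1.82, 1.88 and 1.34 for replicates 3, 4 and 6.

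The 3 vehicle libraries with the lowest totals carried the high values of several members. Anxa1 was 14013, 14108 and 12692 in replicates 3, 4 and 6, and 2738, 3964 and 5209 in replicates 1, 2 and 5. Vim was 23556, 30446 and 25033 in the first set and 6349, 9184 and 10505 in the second. Anxa3 ran from 4544 to 4797 against 2139 to 2682, Anxa4 from 10715 to 11872 against 7958 to 8207, and S100a6 from 1638 to 2544 against 689 to 1602. S100a10 went the opposite way, from 4043 to 5294 against 5908 to 8932, and Anxa2, Anxa5, S100a4 and S100a11 overlapped between the 2 sets. Without the 3 libraries, CLDN1 mAb against Vehicle Control gave 0.15 for Anxa1 and 0.13 for Vim, and 0 members were called. Against Regular diet, the 3 remaining vehicle libraries gave log2 fold changes of 3.92 for Anxa1 and 3.11 for Vim.

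Marker genes differed between the same libraries. In vehicle replicates 3, 4 and 6, markers of lipid-associated macrophages summed to 202, 196 and 194, against 37.3, 61.4 and 78.3 in replicates 1, 2 and 5. Summed markers of fibroblasts ran from 105 to 135 against 34.1 to 79.4, those of cholangiocytes from 98.4 to 101 against 45.6 to 78.2, and those of neutrophils from 1.79 to 2.17 against 0.724 to 0.846. Hepatocyte markers ran from 318 to 412 against 919 to 1147. Their part in the values of Anxa1, Vim and the other members was not tested.

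Library codes in the labels put 3 vehicle and 3 antibody libraries at or below 30 and 3 of each at or above 36, with Regular diet between. Within codes up to 30 the antibody differences of the members ran from -0.41 for Anxa1 to 0.15 for S100a4, and within codes from 36 from -1.12 for Anxa1 to -0.13 for S100a10, with an adjusted p of at least 0.296 in both. What the codes stand for is not stated. Regular diet lies in 1 run of codes, so code and group cannot be told apart there.

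**Figure D4:**
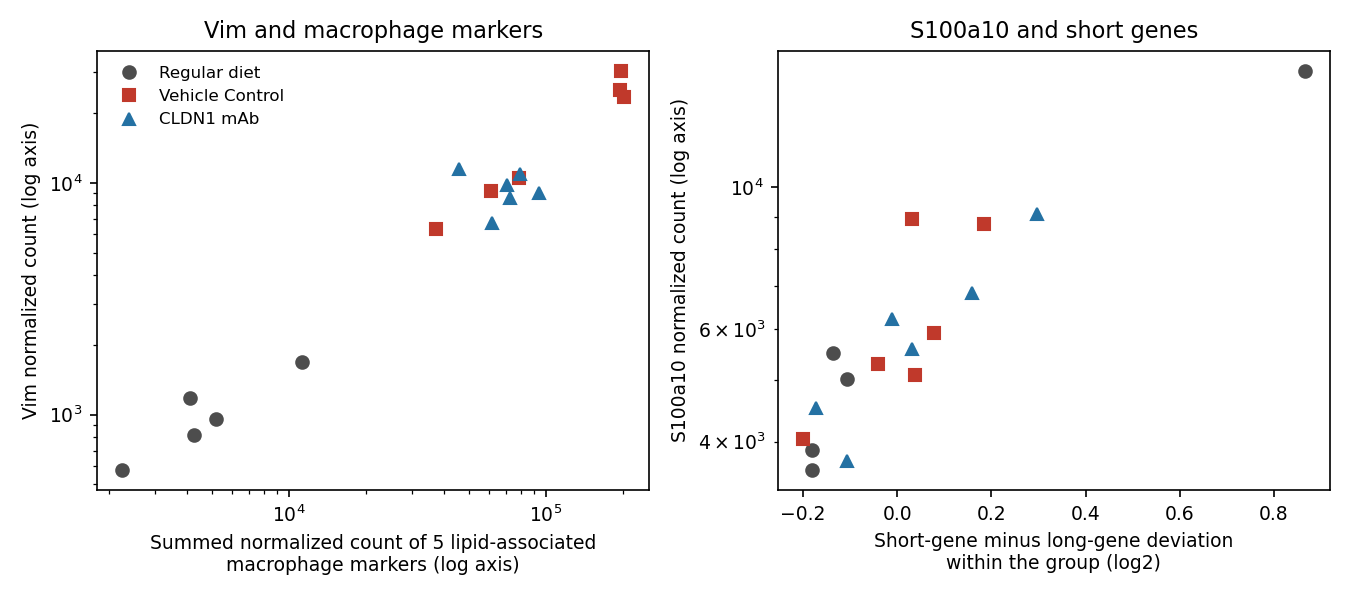
Left, Vim against the summed normalized counts of 5 lipid-associated macrophage markers per library (log axes). Right, S100a10 (log axis) against the median deviation of short genes minus that of long genes within the group (log2). The 3 vehicle libraries with marker sums of 194 to 202 (units of 1000) hold the highest Vim values, and Regular diet replicate 1 lies at 0.87 with 15226 S100a10 counts.

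Members varied together to different degrees over the 12 DEN-CDA-HFD mice. Of 45 pairs, 14 passed a permutation test of Pearson's r with an adjusted p under 0.05, and all 14 were positive. Over the 9 mice without vehicle replicates 3, 4 and 6, 0 of 45 passed, and with the same total per library 28 did. For Anxa1, Anxa3, Anxa4 and Vim, whose values fall into separate sets, r is given over those 9 mice alone, where Anxa3 and Anxa4 had r = 0.86 (permutation p = 0.00526, adjusted p = 0.0886) and S100a6 and Vim r = 0.82 (permutation p = 0.00591, adjusted p = 0.0886). S100a6 and S100a10 also differed without overlap between the vehicle sets, so their other pairs are given over 12 and over 9 mice. S100a10 and S100a11, which lie 28.8 kb apart on chromosome 3, had r = 0.70 and Spearman's rho = 0.69 over 12 mice (permutation p = 0.0119 and 0.0171, adjusted p = 0.0412 and 0.07), and r = 0.59 without the 2 mice farthest in S100a10. Over the 9 mice this pair had r = 0.90 (permutation p = 0.00176, adjusted p = 0.0792). Anxa2 and S100a11 had r = 0.76 and rho = 0.56 (permutation p = 0.00345 and 0.0634, adjusted p = 0.0172 and 0.17). Without the 2 mice farthest in Anxa2, antibody replicates 4 and 5, r fell to 0.37, so its size over 12 mice depends on them. Within vehicle alone r was 0.64 and within the antibody group 0.74. Over the 9 mice it was 0.77 (permutation p = 0.0141, adjusted p = 0.159). S100a4 and S100a6 had r = 0.71 and rho = 0.75 (permutation p = 0.0106 and 0.00734, adjusted p = 0.0397 and 0.0413), and r = 0.67 without the 2 farthest. Over the 9 mice their r was 0.73 (permutation p = 0.0264, adjusted p = 0.238). The libraries of each pair share their depth and scaling.

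S100a10 also moved with a property of the whole library. For each library the median deviation from the group mean was taken for 1514 genes under 1000 exonic bases and for 11327 genes of 3000 bases or more, a measure chosen after seeing the data. The difference, short minus long, was 0.87 in Regular diet replicate 1 and from -0.18 to -0.11 in the other Regular diet libraries. Over the 12 DEN-CDA-HFD mice S100a10, centred on its group, had r = 0.85 and rho = 0.81 with it (permutation p = 0.00054 and 0.00193, adjusted p = 0.0054 and 0.0193 over 10 genes), and r = 0.74 without the 2 farthest mice. For S100a11 r was 0.66 and rho 0.62 (permutation p = 0.0185 and 0.0375, adjusted p = 0.0924 and 0.188), which did not pass, and neither did the other 8. Anxa2 was among these 8, at r = 0.26 (permutation p = 0.407, adjusted p = 0.508). The part of this library property in the S100a10 to Anxa2 ratio was not tested. S100a10 has 1212 exonic bases and S100a11 has 511, while S100a4, with 584, had r = 0.22 (permutation p = 0.501, adjusted p = 0.556) and rho = 0.27.

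The genes whose values followed each member most closely over the 12 mice are given as a description, among 14282 genes with a mean of at least 50. For Vim they were Mgp (r = 0.99), Eno2 (0.99) and Gfpt2 (0.98), and for Anxa1 C3ar1 (0.99), Rab7b (0.99) and Il7r (0.99). Mgp encodes matrix Gla protein, C3ar1 the complement C3a receptor and Il7r the interleukin-7 receptor. For Anxa2 they began with Tfe3 (0.94) and Ccl2 (0.93), the latter a monocyte-attracting chemokine, for Anxa3 with Akr1b10 (0.98), for Anxa4 with Cd209a (0.98) and for Anxa5 with Lmnb1 (0.94). For S100a6 the closest was Mmp7 (0.97), matrilysin, for S100a11 Tuba1b (0.98), an alpha-tubulin, and for S100a10 Nnt (0.97). S100a4 had no close follower, with Slc2a6 first at 0.81. The 12 points share the split of the vehicle libraries.

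Most S100 genes of the mouse lie in 1 cluster on chromosome 3. S100a4 (90603771 to 90606045) and S100a6 (90612882 to 90624181) sit within it, and S100a11 (93520488 to 93526287) and S100a10 (93555080 to 93564643) lie 2825 kb further on. Of 12 other S100 genes 7 passed the filter, and 4 of these were higher in vehicle and none lower, against 29.8% and 20.7% of all genes. These were S100g, the vitamin D-dependent calbindin (4.49), S100a8 (2.95) and S100a9 (2.54), which form calprotectin of neutrophils and monocytes, and S100a14 (2.57). In Regular diet S100g ran from 0 to 4.38 normalized counts and S100a14 from 1.31 to 4.58. Both thus passed the filter only through the DEN-CDA-HFD libraries, which favours a higher call, and their fold changes rest on values near 0. S100a14 did not pass without vehicle replicates 3, 4 and 6 (adjusted p = 0.109) or after quantile normalization (adjusted p = 0.0784). S100a1, S100a13 and S100a16 did not pass, at -0.43, -0.41 and -0.17. Regular diet replicate 1 was again the highest of its group for all 3, and without it they stood at -0.11, -0.021 and 0.20 and did not pass. With antibody 4 were higher and none lower, against 24.8% and 14.1% of all genes. Of these 4, S100a14 (1.87, adjusted p = 0.0381) lost its call under several alternatives, among them quantile normalization (adjusted p = 0.434). S100a9 (1.64, adjusted p = 0.0146) lost its call after quantile normalization (adjusted p = 0.0932) and without Regular diet replicate 3 (adjusted p = 0.051). S100a10 thus lay with S100a1, S100a13 and S100a16 among the S100 genes that did not pass, 28.8 kb from S100a11 at 4.25.

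**Figure D5:**
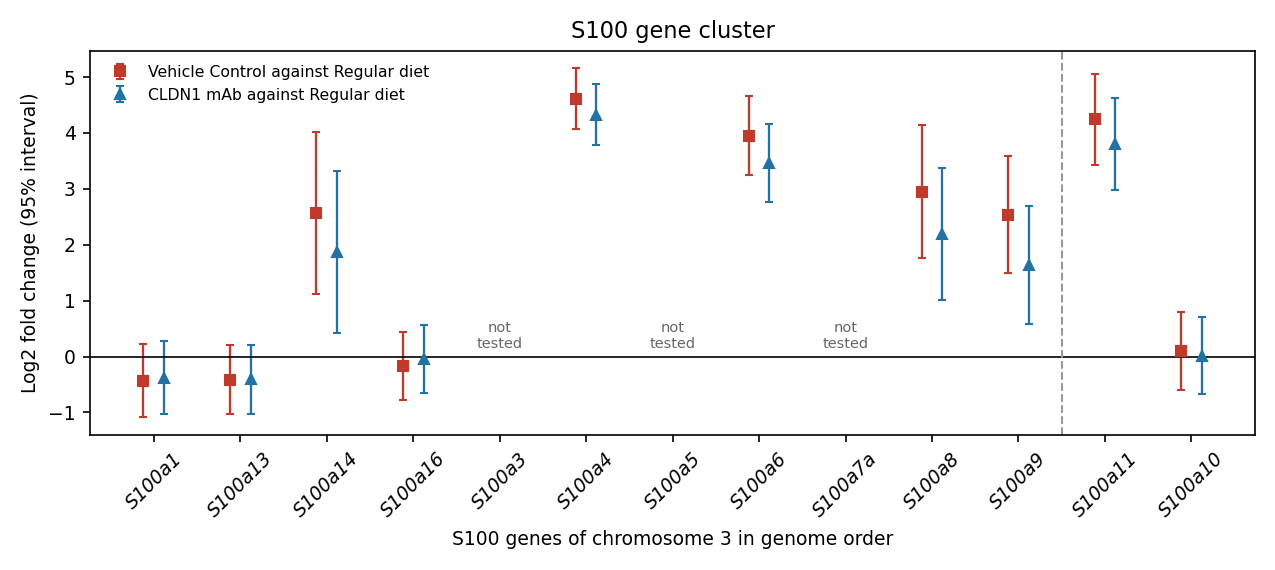
Log2 fold changes with 95% intervals of the S100 genes of chromosome 3 in genome order, for Vehicle Control and CLDN1 mAb against Regular diet. The dashed line marks the 2825 kb gap, beyond which S100a11 lies at 4.25 and S100a10 at 0.10 in vehicle, and genes under the filter are marked as not tested.

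Of 7 other annexin genes, 6 passed the filter, and 3 were higher in vehicle with none lower, against 29.8% and 20.7% of all genes. Anxa13, the annexin of gut-type epithelium, rose from a mean of 27.99 to 401 normalized counts (log2 fold change 3.71), Anxa9 from 99.4 to 652 (2.80) and Anxa7 from 5441 to 7720 (0.50). Anxa6, Anxa8 and Anxa11 did not pass, at -0.29, 1.88 and -0.34. Without Regular diet replicate 1 Anxa8 passed at 2.37 (adjusted p = 0.0342) and Anxa11 at -0.42 (adjusted p = 0.0479). The same 3 passed with antibody, Anxa13 at 3.48, against 24.8% of all genes called higher.

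Among 17 partners and receptors of annexins and S100 proteins, 10 were higher in vehicle, 2 lower and 5 did not pass. Of all genes, 29.8% were called higher and 20.7% lower. The plasminogen system led, with the activators Plat, tissue-type (5.33), and Plau, urokinase (4.03), and the urokinase receptor Plaur (4.47). The mean of Plat went from 30.5 normalized counts in Regular diet to 1420 in vehicle. Plg, plasminogen itself, a secreted product of hepatocytes and the substrate of these activators, fell by 1.57, from 133679 to 49873. Ahnak, a scaffold that binds the annexin A2 complex, rose by 2.49. Of the formyl peptide receptors, Fpr1 was at -0.94 (adjusted p = 0.0302) and Fpr2 at 0.22 (adjusted p = 0.603). Scaling each library to the same total ended the Fpr1 call (-0.32, adjusted p = 0.47), as did the loss of any one of 6 libraries, namely replicates 1, 2 and 5 of either group. With antibody 8 were higher, 2 lower and 7 did not pass, against 24.8% higher and 14.1% lower of all genes. Plg was then at -0.88 (adjusted p = 0.033), a call lost under several alternatives, among them equal totals (adjusted p = 0.123).

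Vimentin's relatives had smaller fold changes. Of 9 other intermediate filament and lamin genes, 5 were higher in vehicle, 1 lower and 3 did not pass, against 29.8% higher and 20.7% lower of all genes. Among the 5 higher were Prph, peripherin, at 1.95, Synm, synemin, at 1.54 and Des, desmin of muscle and stellate cells, at 1.35. After quantile normalization none of these 5 passed, with an adjusted p of 0.0553 for Nes and 0.198 for Prph, while 2 other genes of the list did. Without vehicle replicates 3, 4 and 6, 1 gene of the list was higher. Prph lay near the floor, from 0 to 17.2 normalized counts in Regular diet and with a median of 14.2 in vehicle. Prph and Des also lost their calls with single libraries left out, as without Regular diet replicate 3 (adjusted p = 0.121 and 0.0786). Lmnb2 was at -0.53 as deposited and at 0.09 with equal library totals (adjusted p = 0.803). Gfap, Plec and Lmna did not pass.

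Genes of actin binding, galectins and thymosins rose in 10 of 12 cases in vehicle, against 29.8% of all genes called higher. This list, like the others, was chosen with earlier results of these data known. Lgals3, galectin-3 of activated macrophages, went from a mean of 369 to 25374 (6.13), Capg, an actin-capping protein of macrophages, from 166 to 5808 (5.11), and Tmsb10, thymosin beta-10, from 152 to 1492 (3.41). Tagln2, transgelin-2, an actin-binding protein, followed at 2.93. Pfn1 did not pass (0.51), and Cnn3 was at -0.31 as deposited and at 0.31 with equal library totals (adjusted p = 0.0879). In CLDN1 mAb against Vehicle Control no gene of these 5 lists passed, as 0% of all genes did, with list medians from -0.37 for the partners to 0.01 for the other S100 genes. With array weights 8 of the partners and 7 of the actin-binding, galectin and thymosin genes were called lower, as were 7 members. Of all 18624 genes, 2798 were called lower under these weights.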

How the data were processed

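RNA-seq of total RNA from 17 mouse livers was deposited as 1 table of normalized counts per gene and library, a signal that the authors made, per the submitters' processing notes, with Cufflinks 2.2.1 and build mm10. Neither aligner, annotation, strand setting nor scaling method is given in the sources used here. Symbols were given for 52398 of 52545 genes (99.7%), and 17421 genes were at 0 in all libraries. Between 97.7% and 98.2% of low values, up to 20 steps, were whole multiples of a library's smallest step within 0.05 of it, from which depth was estimated. Coordinates and exonic lengths came from GENCODE M21 on the same build.

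Groups followed the labels. Values were tested as log2(value + 1) with limma 3.58.1 (trend, R 4.3.3) on all 17 libraries, for genes of at least 10 in 5 libraries, with Benjamini-Hochberg adjustment over 18624 genes and a threshold of 0.05. Fold changes are on that log2(value + 1) scale, which understates those of low genes. The fit was tested on simulated data. Ratios were tested by exact permutation and correlations with 100000 resamples (Python 3.11.15, scipy 1.17.1). Alternatives covered scaling, pseudocount, filter, array weights, a replicate block, library codes and leaving out libraries. Leaving out vehicle replicates 3, 4 and 6 together was chosen after seeing the data, from their place on the first principal component. The named genes are all members, from 5 lists of relatives and partners the largest fold change and the next 3 in each direction besides genes that did not pass, and up to 3 genes most correlated with each member. The members and lists were chosen with earlier results of these data known. Same-numbered libraries of different groups did not deviate together in all 16 pairs (r from -0.34 to 0.66), so numbers were not taken to pair mice.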

Additional observations from a re-analysis of the deposited data

Results flagged for a closer look

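In 36 groups of values, 4 had a sample far from the others, and chance gives about 1 in 20. All 4 were Regular diet replicate 1 as the highest of its group. S100a10 was 15226 normalized counts against 3611 to 5514 in the other 4 mice. S100a11 was 835 against 146 to 239, and S100a6 was 216 against 61.3 to 106. The log2 ratio of S100a11 to Anxa1 was 1.33 against -0.60 to -0.12. The same library had the largest deposited total (74.6 M) and a short-minus-long gene difference of 0.87. Their part in these values was not tested.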

How the results depend on the processing

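The 9 members above Regular diet kept their direction and call in both comparisons under every alternative run, each library left out in turn included. S100a10 changed sign when single libraries were left out, from -0.066 to 0.45 in vehicle, from -0.15 to 0.37 with antibody and from -0.21 to 0.045 for antibody against vehicle, and the cause was not tested. For CLDN1 mAb against Vehicle Control, array weights called 7 members lower instead of 0 and put S100a10 at 0.015. S100a4 was 0.15 within library codes up to 30, and without vehicle replicates 3, 4 and 6 Anxa1 was 0.15 and Vim 0.13. The S100a11 to Anxa1 ratio with antibody against Regular diet ran from -0.56 to 0.053 with single libraries left out, the last without Regular diet replicate 1. Pairs of members passing were 14, 28 with the same total per library and 0 over 9 mice. Genes lower in vehicle than in Regular diet were 3853, 2242 without the 3 vehicle libraries and 6042 with array weights. With the replicate block 9 members were higher and 0 lower, and 5393 genes were higher and 3795 lower. The numbers share only a label, with a median r of 0.03 over 16 same-numbered pairs and 5 over 0.1. The count test on recovered reads was not run, since the table holds very small values in place of 0, and values of 0 that can be failed estimates, so that whole reads were not recovered for nearly all genes. Depth limits S100a4 and S100a6 in Regular diet, at an estimated 22 to 37 and 46 to 88 fragments.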
